A study of Mus musculus with 40 samples.

Results

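Sarcomere and Z-disc genes were examined in hearts of mice in which cardiomyocytes were made to express *Il11*. The group held 41 genes, chosen by name from the proteins of the thick and thin filaments, the M-band, titin, the Z-disc and the structures next to them. Of these, 40 were listed in both tables of the series, among 17646 genes in males and 17223 genes in females, and 1 (*Tnni1*) was not analysed here. PolyA RNA from 40 hearts was sequenced, 20 of each sex. Control hearts came from tamoxifen-treated littermates that were heterozygous for the α-MHC-MerCreMer transgene (MCM) and wild type at *Rosa26*, and the labels call them WT. CM-Il11-Tg mice carried 1 copy each of MCM and *Rosa26-Il11*, so that tamoxifen turned on *Il11* in cells that use the α-MHC promoter, which are cardiomyocytes. Mice aged 8 weeks received tamoxifen (20 mg/kg) for 5 days, and CM-Il11-Tg hearts were taken 1, 3 and 6 weeks later. A further group of CM-Il11-Tg hearts received no tamoxifen (uninduced). Every group thus carried MCM, and every group but the uninduced one received tamoxifen. The labels place the control and the uninduced hearts at baseline, so time since tamoxifen and age cannot be told apart from the transgene in a comparison with later weeks. Each group held 4 libraries, except that male controls and male 6-week hearts held 3, because 2 male libraries had labels that named both of these groups. The labels give the tissue as heart and the study describes it as left ventricle.

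The sarcomere is the contractile unit of striated muscle. Thick filaments of myosin, held in register at the M-band, pull on thin filaments of actin that carry troponin and tropomyosin, and the thin filaments are anchored by α-actinin at the Z-disc, which bounds each unit. Titin spans from the Z-disc to the M-band, and many smaller Z-disc proteins link the filaments to stretch sensing and signalling.

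Values are normalised read counts in CPM (reads divided by 1 factor per library, which is not library size alone). A change is a log2 fold change on the log2(CPM + 0.5) scale with its standard error. A gene was called where limma, fitted over all genes of 1 sex, gave a Benjamini-Hochberg adjusted p under 0.05. The sexes were scaled in separate tables, so no difference between sexes was tested. In bulk tissue, fewer cells of a type and less RNA per cell cannot be told apart. The libraries held between 16663513 and 65333832 reads on listed genes in males and between 19147947 and 30929192 in females.

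*Il11*, the induced gene, was at 0, 0.114 and 0.147 CPM in male controls and 18.4, 23.3, 20.1 and 16.5 in uninduced males. It was at 351, 410.4, 375 and 712 at 1 week, 529, 336, 422 and 398 at 3 weeks and 485, 407 and 819 at 6 weeks. Female controls were at 0.0431, 0.145, 0 and 0.166 and uninduced females at 21.2, 21.4, 49.1 and 15.5, and induced females at 461, 447, 414 and 614 at 1 week, 504, 541, 445 and 488 at 3 weeks and 497, 436, 328 and 590.5 at 6 weeks. The 3 kinds of group did not overlap in either sex, and the uninduced hearts were not free of *Il11*. Reads of the mitochondrial genome made up 25.9 to 28.5% of the reads in male controls and 28.7 to 31.7% in female controls, against 18.3 to 26.5% and 15.8 to 22.5% at 6 weeks. In male 1-week replicate 4 they made up 7.70%, the lowest of the 38 grouped libraries. In 5 female libraries (uninduced replicate 4, 1-week replicate 2 and 6-week replicates 2, 3 and 4) the nuclear RNA *Neat1* was at 98.8 to 244 CPM, against 443 to 1508 in the other 15. *Malat1*, another nuclear RNA, was at 236 to 330 in these 5 and at 565 to 1239.6 in the others. Male 6-week replicate 4 stood apart from the other grouped males in *Malat1*, at 371 against 796 or more, and had the lowest *Myom2* and *Tmod1* of any grouped male and the lowest share of reads on the members (3.0%). Without it 14 members were called in males at 6 weeks, 3 higher and 11 lower, with *Myom2* at -0.85 and *Tmod1* at -1.11. Of 10 markers of atrial heart tissue, *Sln*, *Bmp10* and *Mybphl* were not listed in either table, and 6 in males and 7 in females were. The listed ones summed to 67.4 to 126 CPM in male controls and 279 to 924 in males at 1 week. In females they summed to 99.7 to 149.6 in controls and 128 to 1710.0 at 6 weeks. Of 15 markers of skeletal muscle, *Myh1*, *Myh2*, *Myh4*, *Actn3*, *Tnnc2*, *Myod1* and *Myf6* were not listed. The 8 that were listed summed to 905 to 1157 CPM in male controls and 1019 to 1262 in female controls.

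On the deposited scale most of the sarcomere genes that changed after *Il11* induction were lower, while scaling by library size alone turned the balance of calls in females at 6 weeks and in both sexes at earlier weeks. At 6 weeks against control, 17 of 40 members were called in males, 4 higher and 13 lower, where 27.1% of all genes tested were called (16.2% higher and 10.9% lower). In females 19 of 40 were called, 3 higher and 16 lower, where 42.7% of all genes were called (21.7% higher and 21% lower). As a share of the members, 32.5% were called lower in males and 40% in females. The median log2 fold change of the 40 members was -0.35 in males and -0.32 in females, beside -0.01 and -0.02 over all genes tested. *Actn1*, *Pdlim5* and *Tpm3* rose in both sexes, and *Csrp3*, *Fhl2*, *Myh7b*, *Myom1*, *Myom2*, *Myoz2*, *Smpx*, *Tmod1* and *Ttn* fell in both. A further 12 members were called in 1 sex, 16 in neither, and 0 in opposite directions. The log2 fold changes had the same sign in both sexes for 35 of the 40 members, 28 of them lower in both, with Pearson's r = 0.81 and Spearman's rho = 0.75 over the 40 genes, which are not independent and come from separate libraries in each sex. Over all 16627 genes tested in both sexes 72.9% had the same sign, and r was 0.83.

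The balance of the calls depended on the scaling and on a few libraries. The deposited values carry a normalization factor beyond library size, and when values were scaled by library size alone the median over all genes at 6 weeks moved to 0.16 in males and 0.33 in females. On that scale the male calls at 6 weeks numbered 12, with 5 higher and 7 lower, where 21.3% of all genes were called higher and 3.51% lower. The female calls numbered 15, with 9 higher and 6 lower, where 49.3% of all genes were called higher and 6.16% lower. Of the 12 members called in both sexes at 6 weeks, 7 were also called in both on that scale (*Actn1*, *Myh7b*, *Myom2*, *Myoz2*, *Pdlim5*, *Tmod1* and *Tpm3*), and *Csrp3*, *Fhl2*, *Myom1*, *Smpx* and *Ttn* were not. The median of the members was then -0.16 and 0.08, below that of all genes in both sexes. Library-size scaling multiplies each library by 1 factor, which moves all its genes nearly alike. The order of members and all genes was thus nearly fixed between the scales and is no separate check. *Actn2* and *Cryab*, called lower in females at 6 weeks on the deposited scale, were at 0.04 and 0.03 on library size alone. Without the 5 female libraries low in *Neat1*, 7 members were called in females at 6 weeks, 2 higher and 5 lower, with 1 heart left in that group. Of the 2 male libraries of conflicting labels, the titles make the one with *Il11* at 511 CPM a control. They make the one with *Il11* at 0.597 CPM a 6-week heart, and the descriptions say the reverse. Placed by their titles 0 members were called in males at 6 weeks by limma, and placed by their descriptions 22 were called. The grouped male controls held *Il11* at 0 to 0.147 CPM and the grouped 6-week males at 407 to 819. Placing by title thus put a library with *Il11* at the level of 6-week hearts among the controls. The 0 calls of that placement therefore do not measure how stable the calls are.

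**Figure D1:**
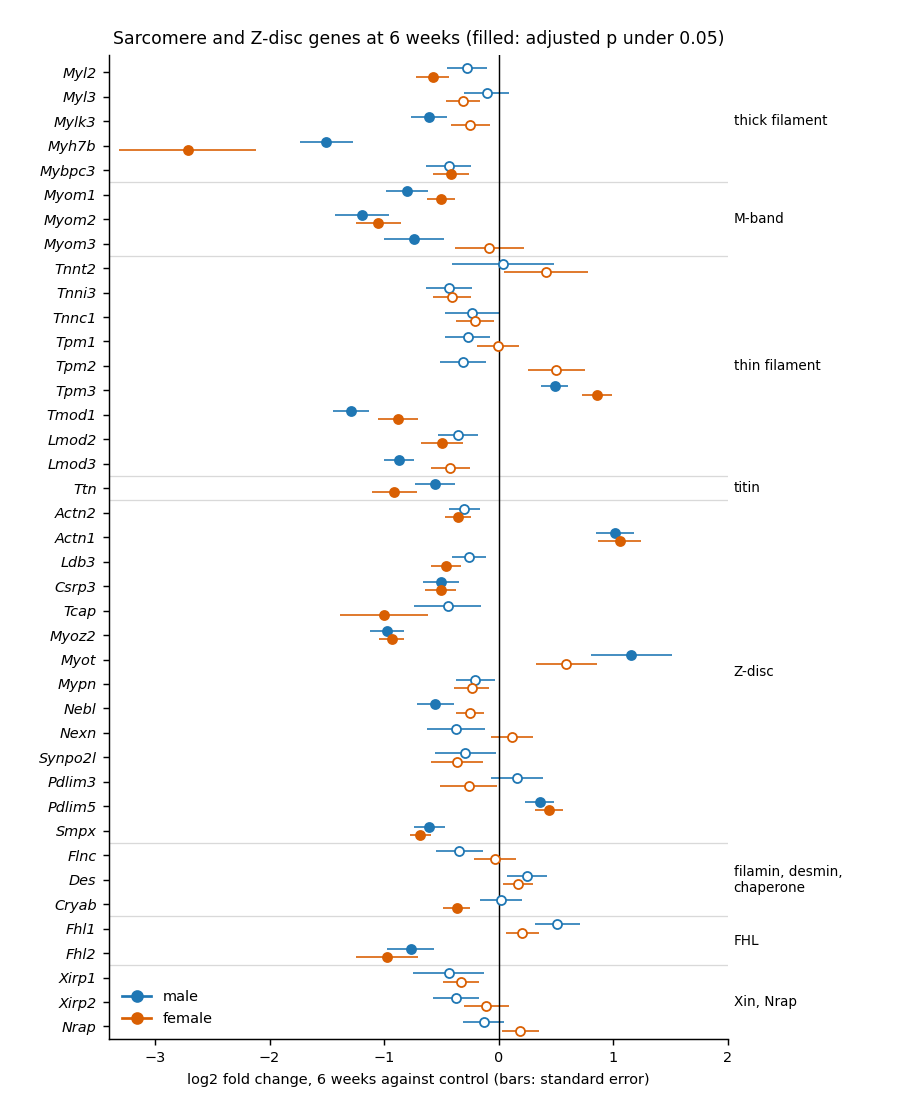
Log2 fold change at 6 weeks against control (x axis) with its standard error for each of the 40 members (y axis), grouped by role. Blue is male and orange is female, and filled points had an adjusted p under 0.05. On this scale most points lie left of 0 (on library size alone the female median was 0.08), *Myh7b* lies farthest left in both sexes (-1.50 in males, -2.71 in females), and *Actn1*, *Pdlim5* and *Tpm3* are filled on the right in both.

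Members were also called at the earlier weeks. In males 17 of 40 members were called at 1 week, 7 higher and 10 lower, where 33.5% of all genes were called (18.9% higher, 14.6% lower). In females 17 were called as well, 3 higher and 14 lower, where 28.4% of all genes were called (15.3% higher, 13.1% lower). At 3 weeks 15 were called in males (4 higher, 11 lower, where 21.3% of all genes were called, 13.2% higher and 8.1% lower) and 16 in females (2 higher, 14 lower, where 31.3% of all genes were called, 16.8% higher and 14.5% lower). *Actn1*, *Myom2*, *Myoz2*, *Tmod1*, *Tpm3* and *Ttn* were called at 1, 3 and 6 weeks in both sexes on the deposited scale, and only *Actn1* and *Tpm3* of them kept every call under scaling by library size alone. *Flnc*, *Myl3*, *Nexn*, *Nrap*, *Pdlim3*, *Synpo2l*, *Tnnt2*, *Tpm1*, *Tpm2* and *Xirp2* were called at no week in either sex. The comparisons of the 3 weeks with control share their control libraries. With scaling by library size alone, under which the median of all genes was 0.33 and 0.23 in males and 0.28 and 0.30 in females at 1 and 3 weeks, 12 members in males (10 higher, 2 lower, where 37.9% and 3.82% of all genes were called higher and lower) and 7 in females (6 higher, 1 lower, beside 41.3% and 3.44%) were called at 1 week. At 3 weeks 9 were called in males (5 higher, 4 lower, beside 22.9% and 2.33% of all genes) and 9 in females (6 higher, 3 lower, beside 41.9% and 3.55%) on that scale. Single hearts also mattered at 1 week, where 11 members were called in males without control replicate 3 and 9 in females without 1-week replicate 4.

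**Figure D2:**
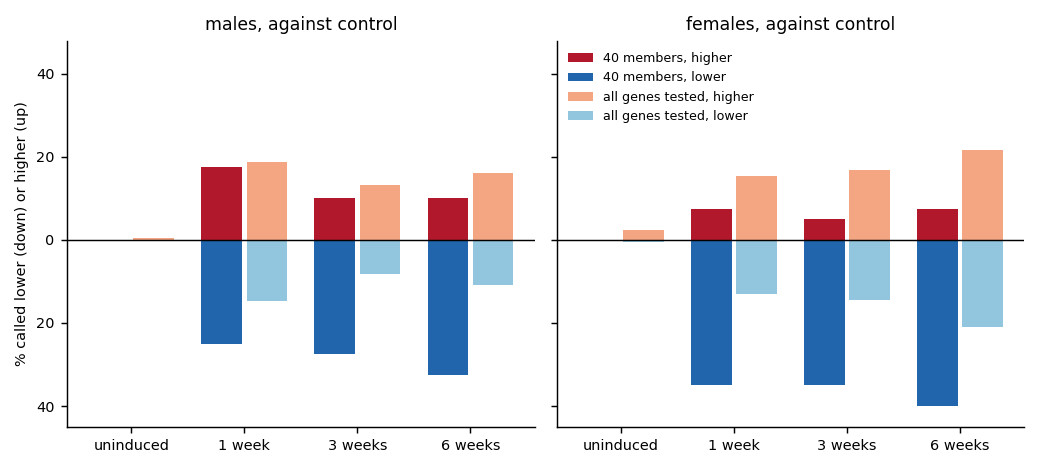
Share of the 40 members (dark bars) and of all genes tested (light bars) called higher (up) or lower (down) against control, in percent, for the uninduced group and each week, with males left and females right. At each week after tamoxifen the members called lower make up a larger share than all genes called lower (32.5% against 10.9% in males and 40% against 21% in females at 6 weeks), and no member is called in the uninduced group. On library size alone 9 members were called higher and 6 lower in females at 6 weeks.

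Among the thick filament genes, the largest fall was in *Myh7b*, a myosin heavy chain gene of slow and cardiac muscle that holds the microRNA gene *Mir499* (chr2:155464800-155464878) in an intron. *Myh7b* lies at chr2:155453096-155476234 (GRCm39, plus strand). In males it was at 148, 152 and 112 CPM in the control hearts and 84.9, 106.5, 103 and 121 in the uninduced hearts. It was at 33.5, 53.9, 43.9 and 57.6 at 1 week, 40.8, 47.4, 81.8 and 41.96 at 3 weeks and 52.4, 51.02 and 40.6 at 6 weeks. Every induced male heart was below every male control and every uninduced male heart. The log2 fold change was -1.55 ± 0.21 at 1 week (adjusted p = 2e-05), -1.42 ± 0.21 at 3 weeks (adjusted p = 6.2e-05) and -1.50 ± 0.23 at 6 weeks (adjusted p = 5.9e-05).

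The female hearts were spread more widely in *Myh7b*. The 4 controls were at 189, 148, 56.8 and 76.5 CPM, and the uninduced hearts at 134, 89.0, 30.5 and 15.6. Hearts at 1 week were at 71.4, 11.6, 37.1 and 29.7, those at 3 weeks at 51, 67.2, 31.6 and 52.4 and those at 6 weeks at 40.9, 11.3, 12.6 and 9.96. The 6-week hearts lay below all controls, whereas at 1 and 3 weeks the highest hearts overlapped the lowest controls. The change was -1.74 ± 0.60 at 1 week (adjusted p = 0.034), -1.10 ± 0.60 at 3 weeks (adjusted p = 0.18) and -2.71 ± 0.60 at 6 weeks (adjusted p = 0.0012). The 5 female libraries low in *Neat1* were also the 5 lowest in *Myh7b*, at 9.96 to 15.6 CPM, and 3 of them are 6-week hearts. Without these 5 libraries 1 heart remained at 6 weeks, assumed to vary like the other groups, and the change was -1.35 (adjusted p = 0.19). At 1 week it was -1.28 (adjusted p = 0.053) without them, and -1.40 (adjusted p = 0.062) under scaling by library size alone. The male library lowest in *Neat1* was at 509 CPM. Exons of *Myh7b* share bases with those of *Gss* and *Trpc4ap* on the other strand, whose log2 fold changes at 6 weeks were 0.18 ± 0.12 and -0.06 ± 0.12 in males and 0.12 ± 0.10 and -0.19 ± 0.09 in females.

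**Figure D3:**
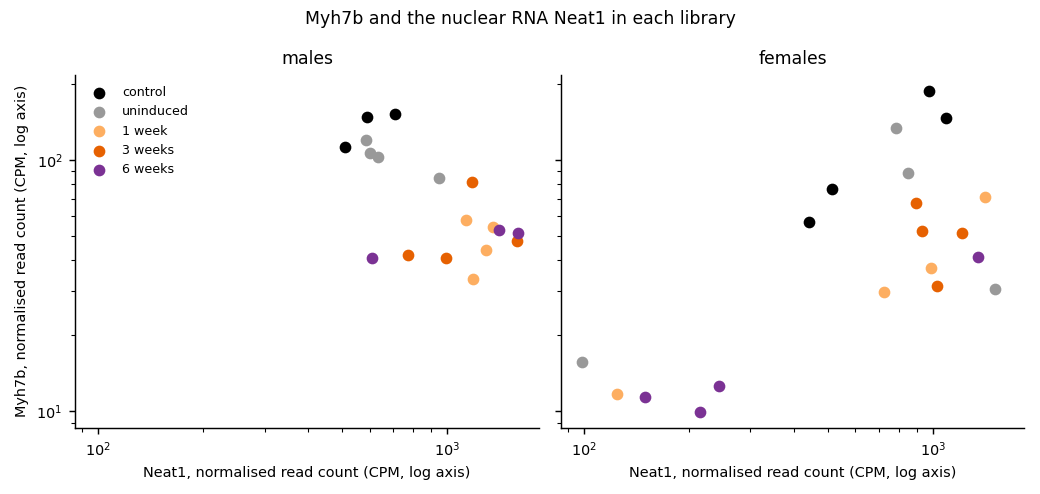
*Myh7b* (y axis) against the nuclear RNA *Neat1* (x axis) in each library, both in CPM on log axes, with males left, females right and groups by colour. In females the 5 libraries at the lower left have *Neat1* at 98.8 to 244 CPM and *Myh7b* at 9.96 to 15.6 CPM, and no male library lies there.

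The mature strand of the microRNA hosted by *Myh7b* is printed because the host transcript was the member that fell most. Capitals mark the seed, bases 2 to 8. PolyA libraries do not measure mature microRNAs, so no level is given for it, and the sequence is that of RefSeq (GRCm38.p6).
mmu-miR-499-5p: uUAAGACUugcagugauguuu

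The other thick filament genes changed less. *Mylk3*, the cardiac myosin light chain kinase, fell in males at 3 and 6 weeks (556 ± 91.1 CPM in controls, n = 3, against 366 ± 78.2 at 6 weeks, n = 3; log2 fold change -0.61 ± 0.16) and was at -0.25 ± 0.17 in females, where it was not called. *Myl2*, the ventricular regulatory light chain, was called lower in females at each week (6447 ± 754 CPM in controls and 4329.8 ± 618 at 6 weeks, n = 4 each; -0.58 ± 0.14) and at no week in males (-0.28 ± 0.17 at 6 weeks). *Mybpc3*, myosin-binding protein C, was called lower in females at 6 weeks only, at -0.42 ± 0.16, beside -0.44 ± 0.20 in males, which did not pass (adjusted p = 0.11). *Myl3*, the essential light chain, was not called at any week. Of the 5 thick filament members, 2 were called lower at 6 weeks in males and 3 in females, and none higher. Of all genes tested, 10.9% were called lower in males and 21% in females.

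All 3 M-band genes, which encode the myomesins that cross-link thick filaments, were called lower at 6 weeks in males, and 2 of 3 in females. Of all genes tested, 10.9% were called lower in males and 21% in females. *Myom2* (chr8:15107272-15183541, plus strand), the myomesin of fast fibres and adult heart, was at 907, 1161 and 693 CPM in male controls and 833, 830.0, 659 and 828 in uninduced males. It was at 602, 568, 513 and 533 at 1 week, 322, 429, 465 and 319.9 at 3 weeks and 461, 540.1 and 243 at 6 weeks. All 11 induced male hearts lay below the 3 controls. Female controls were at 945, 1069, 584 and 692 CPM and uninduced females at 564, 509, 464 and 766. Females were at 604, 459, 590.1 and 435 at 1 week, 590.2, 373, 422 and 564 at 3 weeks and 389, 378, 319 and 470.1 at 6 weeks. The female groups did not overlap at 6 weeks and overlapped at 1 and 3 weeks. At 6 weeks the log2 fold change was -1.20 ± 0.24 in males (adjusted p = 0.00078) and -1.05 ± 0.20 in females (adjusted p = 0.00026). At 1 week it was -0.70 ± 0.22 and -0.63 ± 0.20, while under scaling by library size alone it was -0.35 and -0.28 and not called in either sex (adjusted p = 0.26 in both). The male call at 1 week was also lost with the length trend removed (adjusted p = 0.051). *Myom1*, the myomesin of all striated muscle, was at -0.80 ± 0.18 and -0.50 ± 0.12 at 6 weeks. *Myom3* was near the lower end of the tables, at 2.43 ± 0.575 CPM in male controls, and was called only in males at 6 weeks (-0.74 ± 0.26, adjusted p = 0.041).

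Of the thin filament genes, those of the filament itself mostly did not pass the test at 6 weeks, except *Tpm3*, called in both sexes. Of those that set its length, *Tmod1* was called in both sexes at 6 weeks, and *Lmod2* and *Lmod3* in 1 sex each. Tropomodulin 1 (*Tmod1*, chr4:46038541-46116036, plus strand) caps the pointed end of the thin filament. It was at 195, 228 and 204 CPM in male controls and 143, 163, 185 and 204 in uninduced males. Induced males were at 96.3, 104, 102 and 136 at 1 week, 107, 96.1, 118 and 108 at 3 weeks and 97.4, 95.5 and 66.4 at 6 weeks. No induced male heart reached the lowest male control or the lowest uninduced male. In females the controls were at 142, 174, 172 and 139.8 CPM and the uninduced hearts at 139, 144, 82.9 and 202. Induced females were at 101, 103, 97.6 and 85.5 at 1 week, 83.9, 77.4, 69.6 and 92.6 at 3 weeks and 78.9, 82.6, 85.1 and 92.4 at 6 weeks. Every induced female heart was below the 4 controls, and uninduced replicate 3 lay among the induced hearts. The 6-week change was -1.29 ± 0.16 in males (adjusted p = 5.2e-06) and -0.88 ± 0.17 in females (adjusted p = 0.00041). Exons of *Tmod1* share bases with *Tstd2* on the other strand, a gene at 9.56 CPM in male controls and 7.01 in female controls.

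*Lmod3*, a leiomodin that nucleates and lengthens thin filaments, fell in males at each week. It went from 92.5 ± 6.04 CPM in controls to 51.03 ± 10.1 at 6 weeks (-0.87 ± 0.13, adjusted p = 7e-05). In females it was called at 1 week only (-0.48 ± 0.17), and that call was lost on leaving out 6 of 8 hearts singly. *Lmod2*, the main cardiac leiomodin, was called in females at 6 weeks (-0.49 ± 0.18) and at no week in males. Tropomyosin 3 (*Tpm3*), a slow-muscle and cytoskeletal tropomyosin, rose at every week in both sexes. It went from 62.2 ± 8.68 CPM (n = 3) to 87.1 ± 8.54 (n = 3) in males at 6 weeks and from 59.4 ± 3.77 to 108 ± 13.1 in females (n = 4 each), at 0.49 ± 0.12 and 0.86 ± 0.13 on the log2 scale. *Tpm1*, the main cardiac tropomyosin, and *Tpm2* were not called. Per kb of transcript, *Tpm3* was at 0.838 to 1.07% of *Tpm1* in male controls and 1.38 to 1.68% at 6 weeks, and at 0.8002 to 1.38% and 1.24 to 2.47% in females, where the groups overlapped. Tropomyosin genes share stretches of sequence, and how reads that fit several genes were counted is not given in the sources used here.

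The troponin genes gave few calls. *Tnni3*, cardiac troponin I, was called lower in females at 1 week (-0.65 ± 0.17) and was at -0.44 ± 0.20 and -0.41 ± 0.17 at 6 weeks, not called. *Tnnc1*, troponin C of heart and slow muscle, was called higher in males at 1 week (0.60 ± 0.22, adjusted p = 0.043), and was at -0.26 ± 0.17 in females at 1 week. *Tnnt2*, cardiac troponin T, was not called at any week and was the member with the widest spread within groups in males. Its pooled SD within groups was 0.63 on the log2 scale in males and 0.58 in females, against a median of 0.22 and 0.25 over the 40 members. Male controls were at 7879, 3267 and 2918 CPM and female controls at 5430.4, 5809, 1407 and 3988.

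Titin (*Ttn*), whose canonical transcript is 108 kb long, was called lower at each week in both sexes on the deposited scale. It was at 3497 ± 666 CPM in male controls and 2368 ± 335 at 6 weeks (-0.56 ± 0.18, adjusted p = 0.024), and at 2973 ± 69.9 and 1638 ± 513 in females (-0.91 ± 0.20, adjusted p = 0.00094). After a trend of each library with transcript length was removed, the 6-week change was -0.19 in males (adjusted p = 0.38) and -0.46 in females (adjusted p = 0.012), and the calls at 1 and 3 weeks were lost in both sexes. Under scaling by library size alone *Ttn* was called only in females at 6 weeks (-0.51, adjusted p = 0.023), and was at -0.36 in males (adjusted p = 0.16). Without the 5 female libraries low in *Neat1* it was -0.40 in females at 6 weeks (adjusted p = 0.13). The male call at 6 weeks was also lost without control replicate 3 or without 6-week replicate 1, with values of -0.65 to -0.41 over the 6 hearts left out in turn. Across the 40 members transcript length (log scale) was correlated with the 6-week change with Spearman's rho of -0.19 in males and 0.07 in females. At 1 week rho was -0.37 and 0.23, at 3 weeks -0.06 in both, and in the uninduced hearts -0.56 in males and 0.14 in females.

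At the Z-disc, 3 members rose and 4 fell in males at 6 weeks, and 2 rose and 6 fell in females, of 14. Of all genes tested, 16.2% rose and 10.9% fell in males, and 21.7% and 21% in females. Non-muscle α-actinin (*Actn1*, chr12:80212233-80307547, minus strand), which cross-links actin in many cell types, was at 27.2, 27.3 and 31.5 CPM in male controls and 31.0, 27.3, 23.2 and 26.9 in uninduced males. It was at 54.1, 55.2, 54.0 and 31.7 at 1 week, 59.9, 62.0, 61.4 and 54.9 at 3 weeks and 57.5, 63.7 and 53.9 at 6 weeks. All induced male hearts were above the controls, with 1-week replicate 4 at 31.7 against the highest control at 31.5. Female controls were at 28.5, 25.5, 32.4 and 32.7 CPM and uninduced females at 37.0, 27.4, 52.8 and 30.9. Induced females were at 49.1, 63.5, 60.1 and 48.3 at 1 week, 59.2, 41.1, 66.1 and 64.7 at 3 weeks and 58.6, 62.8, 83.6 and 48 at 6 weeks. They were above all controls, and uninduced replicate 3 lay among them. The log2 fold change at 6 weeks was 1.01 ± 0.17 in males (adjusted p = 0.00013) and 1.05 ± 0.19 in females (adjusted p = 0.00017). *Actn2*, the sarcomeric α-actinin, was at -0.30 ± 0.14 in males, not called, and fell in females (-0.36 ± 0.11, adjusted p = 0.017).

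Per kb of transcript, *Actn1* was at 1.44 to 1.89% of *Actn2* in male controls and 3.56 to 4.80% in males at 6 weeks, and at 1.5 to 2.35% and 4.06 to 6.83% in females. The groups did not overlap in either sex, and *Actn2* remained the more abundant transcript in every group. *Myom2* was at 54.7 to 70.2% of *Myom1* in male controls and 42.9 to 54.6% at 6 weeks, and at 60.5 to 93.1% and 38.9 to 66.3% in females, with overlap in females and nearly touching ranges in males.

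**Figure D4:**
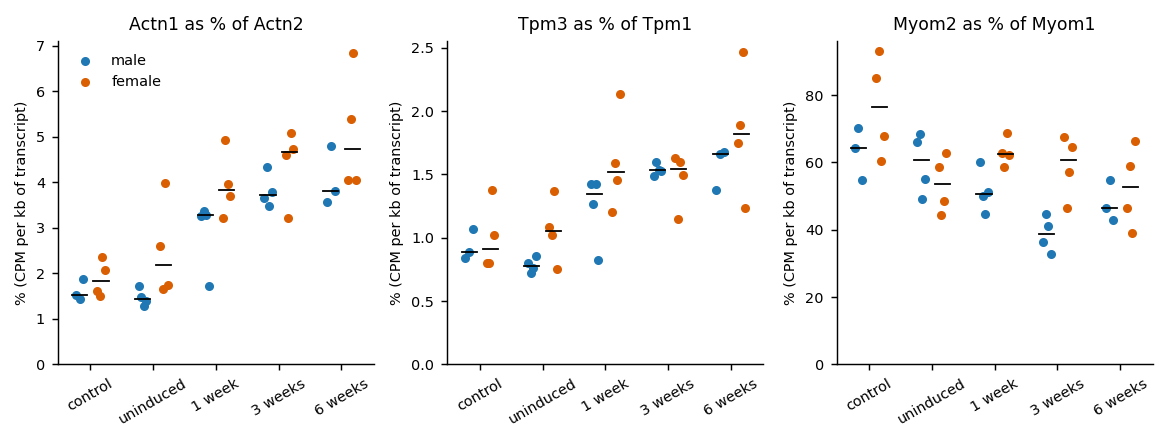
Level of 1 member as a percentage of a related member (y axes, both in CPM per kb of transcript) in each library by group, for *Actn1* over *Actn2*, *Tpm3* over *Tpm1* and *Myom2* over *Myom1*, with the median of each group as a line. The *Actn1* share goes from a median of 1.52% in male controls to 3.801% at 6 weeks and from 1.84% to 4.73% in females, whereas *Myom2* over *Myom1* overlaps between groups in females.

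Of the other Z-disc members, myozenin 2 (*Myoz2*, chr3:122797610-122828664, minus strand) is a calcineurin-binding anchor. It was called lower at each week in both sexes on the deposited scale. Under scaling by library size alone it was not called in males at 1 week (-0.18, adjusted p = 0.37). It was at 771 ± 118 CPM in male controls and 391 ± 53.9 at 6 weeks, and at 837 ± 58.8 and 438 ± 41.7 in females, which is -0.98 ± 0.15 and -0.94 ± 0.11 on the log2 scale, with no overlap between control and induced hearts in either sex. The muscle LIM protein gene *Csrp3*, part of the Z-disc stretch-sensing complex, fell at 6 weeks in both sexes (-0.50 ± 0.16 and -0.51 ± 0.14), although the male call was lost without control replicate 1 or 6-week replicate 4. *Smpx*, a small stretch-responsive protein, fell in both sexes at 3 and 6 weeks (-0.61 ± 0.13 and -0.69 ± 0.09 at 6 weeks). *Ldb3*, which binds α-actinin, fell in both sexes at 1 week (-0.51 ± 0.14 and -0.40 ± 0.13). The female call at 1 week was lost on leaving out 4 of 8 hearts singly. At 6 weeks *Ldb3* fell in females alone (-0.46 ± 0.13, with males at -0.26 ± 0.15, not called). Telethonin (*Tcap*), which caps titin, was called in females at 1 and 6 weeks (-1.24 ± 0.38 and -1.0 ± 0.38) with wide spread, from 523 to 1561 CPM in controls and 324 to 1150.3 at 6 weeks. *Nebl*, a nebulin-like anchor of thin filaments, fell in males at each week (-0.55 ± 0.16 at 6 weeks) and in females at 3 weeks (-0.36 ± 0.12). Its 3-week calls were lost on leaving out 3 of 7 male and 5 of 8 female hearts singly. *Mypn*, which links titin, nebulin proteins and α-actinin, was called lower in males at 1 week (-0.62 ± 0.16) and in females at 3 weeks (-0.45 ± 0.15).

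The Z-disc members that went up beside *Actn1* were *Pdlim5* and, in males, *Myot*. *Pdlim5*, a PDZ and LIM adaptor, went from 444 ± 23.3 to 571 ± 64.1 CPM in males and from 448 ± 36.2 to 606 ± 42.4 in females at 6 weeks (0.36 ± 0.13 and 0.44 ± 0.12). The male call (adjusted p = 0.041) was lost on leaving out 5 of the 6 male control and 6-week hearts singly. Myotilin (*Myot*), a filamin- and actinin-binding Z-disc protein, was called higher in males at each week (17.98 ± 3.92 against 40.7 ± 8.40 CPM at 6 weeks, 1.16 ± 0.35, adjusted p = 0.019) and was at 0.59 ± 0.27 in females, not called. *Nexn*, *Synpo2l* and *Pdlim3* were called at no week, with 6-week changes between -0.37 and 0.16 in males and between -0.36 and 0.11 in females.

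Of the 8 genes around the Z-disc and the intercalated disc, 1 was called at 6 weeks in males (*Fhl2*) and 2 in females (*Fhl2* and *Cryab*). Of all genes tested, 27.1% were called in males and 42.7% in females. *Fhl2*, a LIM protein that binds titin and signalling enzymes, fell from 1301 ± 115 to 764 ± 94.5 CPM in males and from 1498 ± 136 to 761 ± 83.9 in females at 6 weeks (-0.77 ± 0.20 and -0.98 ± 0.27). The female call was lost without the 5 libraries low in *Neat1* (-0.82, adjusted p = 0.21) and under scaling by library size alone (-0.58, adjusted p = 0.052). *Fhl1*, its relative, was called higher only in males at 1 week (0.56 ± 0.18). *Des*, the muscle intermediate filament, was called higher only in males at 1 week (0.68 ± 0.16; females 0.09 ± 0.13). *Cryab*, a small heat shock chaperone of desmin and titin, was lower in females at each week (-0.37 ± 0.12 at 6 weeks) and at 0.02 ± 0.18 in males. *Xirp1*, of the Xin repeat proteins of the intercalated disc, was called lower in females at 3 weeks (-0.53 ± 0.16). *Flnc*, *Xirp2* and *Nrap*, a scaffold of myofibril assembly, were not called, with 6-week changes between -0.37 and -0.13 in males and between -0.11 and 0.19 in females.

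**Figure D5:**
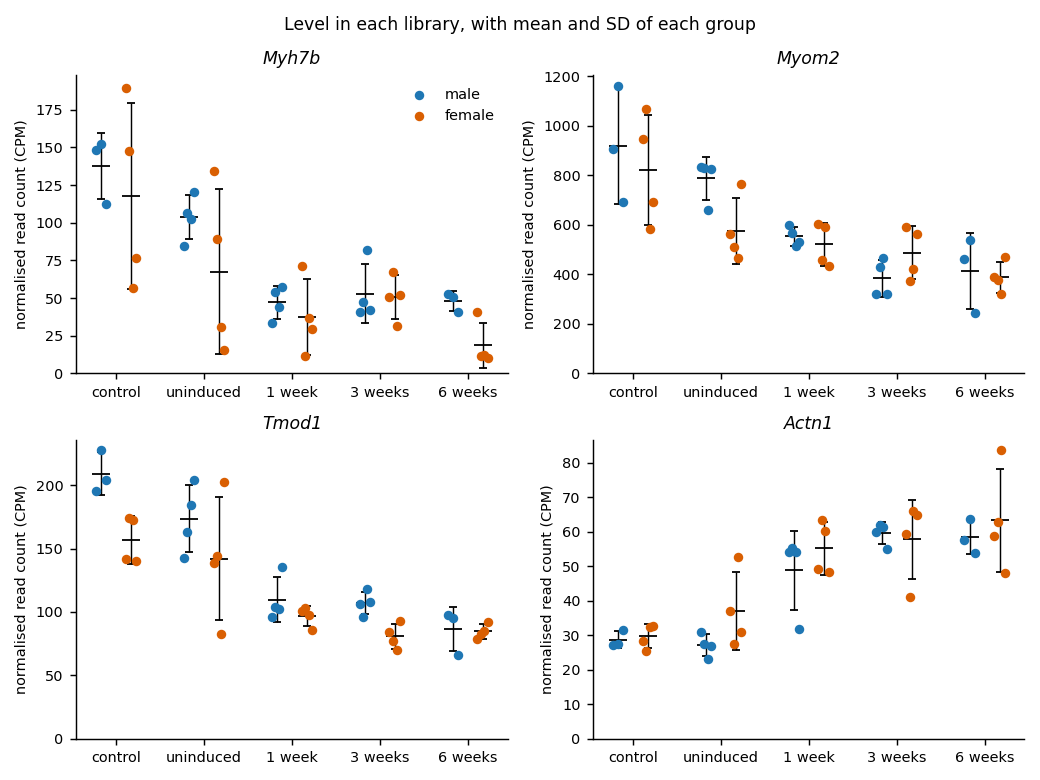
Normalised read count in CPM (y axis) in each library by group (x axis) for *Myh7b*, *Myom2*, *Tmod1* and *Actn1*, with males in blue, females in orange and the mean and SD of each group in black. The 6-week hearts lie below the controls for the first 3 genes and above them for *Actn1* (48 to 83.6 in females against 25.5 to 32.7 in controls). Uninduced males do not overlap the induced males. Uninduced females spread more widely, and some lie among the induced hearts (*Myh7b* down to 15.6, *Myom2* down to 464, *Tmod1* down to 82.9 and *Actn1* up to 52.8).

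Without tamoxifen, 0 of the 40 members were called against control in either sex, where 0.597% of all genes were called in males and 2.87% in females. By limma at an unadjusted p under 0.05 there was 1 member in males (*Pdlim5*, 0.28 ± 0.12) and 6 in females (*Smpx*, *Myoz2*, *Pdlim5*, *Flnc*, *Myom2* and *Tcap*, between -0.84 and 0.41), where 10.6% and 15.4% of all genes had one. edgeR and DESeq2 on the recovered reads also called 0 in each sex, with 1 and 2 at an unadjusted p under 0.05 in males and 5 and 7 in females. *Myh7b* was at -0.40 ± 0.21 in uninduced males and -1.09 ± 0.60 in uninduced females, the latter with the widest error of any member. Against the uninduced hearts, which share the transgenes, 15 members were called at 6 weeks in males, 2 of them higher, where 20.4% of all genes were called (13% higher, 7.4% lower). In females 9 were called, 2 of them higher, where 22.8% of all genes were called (13.7% higher, 9.08% lower). At 1 week against uninduced 10 members were called in males (18.8% of all genes) and 5 in females (12.6%), and at 3 weeks 14 in males (16.1%) and 8 in females (16.7%). *Actn1* and *Tpm3* rose and *Myom1*, *Myom2*, *Myoz2*, *Smpx* and *Tmod1* fell in both sexes in this comparison, at 1.10 ± 0.15 and 0.78 ± 0.19 for *Actn1* and -1.01 ± 0.15 and -0.68 ± 0.17 for *Tmod1*. In this comparison the treatment with tamoxifen itself also differs.

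Limma and edgeR called no member between the weeks, and DESeq2 called a few. At 6 weeks against 1 week, 0 were called by limma in each sex, where 0.165% of all genes were called in males and 1.03% in females, and 13 members in males and 6 in females had an unadjusted p under 0.05, beside 15.4% and 12.6% of all genes. edgeR called 0 in each sex, and DESeq2 called 1 in males (*Tnnc1*, lower) and 0 in females. At 3 weeks against 1 week limma and edgeR called 0 in each sex (0.0177% of all genes by limma in males and 0.218% in females), with 13 and 7 members at an unadjusted p under 0.05 by limma (16% and 10% of all genes), and DESeq2 called 3 in males (*Des*, *Mypn* and *Tnnc1*) and 1 in females (*Xirp1*). At 6 weeks against 3 weeks limma, edgeR and DESeq2 called 0 members in each sex, and limma called 0% of all genes, with 2 members in males and 4 in females at an unadjusted p under 0.05 (6.33% and 15.2% of all genes).

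Levels of the members spanned 4 orders of size. Per kb of transcript, the highest in male controls was *Myl2*, at 5534 (4944 to 5856) CPM per kb as mean and range, followed by *Myl3* at 3851 (3472 to 4225), *Tnni3* at 3039.7 (2529 to 3527), *Tpm1* at 2905 (2719.8 to 3068) and *Tnnt2* at 2639.7 (1643 to 4437). From *Myl3* to *Tnnt2* the ranges of neighbours in this order overlapped, and *Myl2* lay above the rest. In female controls the same 5 genes came first in the same order, with *Myl2* at 7786 (6520.1 to 8623). The lowest was *Myom3*, at 0.436 (0.349 to 0.549) in males and 0.270 (0.179 to 0.407) in females, and *Actn1* and *Tpm2* were also among the lowest 4 in both, at 4.61 (4.37 to 5.06) and 4.79 (3.53 to 5.53) in males. *Myh7b* was at 22.2 (18.1 to 24.5) in males, rank 32 of 40. The members together took up 3.88 to 4.32% of the reads in male controls and 3.0 to 4.36% at 6 weeks, and 3.09 to 4.42% and 3.54 to 4.87% in females, with overlap in both sexes.

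Among 58 further sarcomere, Z-disc and myofibril maintenance genes that are not members, 52 were tested in males and 53 in females. At 6 weeks males had 5 higher calls and 13 lower ones, and females 10 and 14, beside 16.2% higher and 10.9% lower of all genes in males and 21.7% and 21% in females. Their median change was -0.22 in males and -0.12 in females on the log2 scale, and 14 were called the same way in both sexes. The largest falls among those 14 were in *Mylk4*, a myosin light chain kinase (191 ± 32.4 CPM in male controls, 10.6 ± 4.73 at 6 weeks; -4.19 ± 0.30; females -4.19 ± 0.51), *Synpo2*, an actin-bundling Z-disc protein (-0.96 ± 0.15 and -0.74 ± 0.24), and *Fhod3*, a formin of sarcomere assembly (-0.93 ± 0.14 and -0.83 ± 0.21). The largest rises were in *Mybpc2*, the myosin-binding protein C of fast muscle (15.7 ± 3.376 to 93.7 ± 49.6 CPM in males; 2.44 ± 0.39; females 2.55 ± 0.30), *Ankrd1*, a stress-induced titin-binding ankyrin repeat protein (1.72 ± 0.38 and 2.82 ± 0.47), and *Csrp2*, a LIM protein of smooth muscle and other cells (1.46 ± 0.29 and 1.94 ± 0.16).

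Marker lists of cell types moved at the same time. Their counts at 6 weeks stand beside 16.2% of all genes called higher and 10.9% lower in males, and 21.7% and 21% in females. Of 20 cardiomyocyte genes outside the sarcomere, 9 fell and 0 rose in males at 6 weeks and 13 fell and 1 rose in females, their median change was -0.46 and -0.48 on the log2 scale, and their summed level was 30509 to 33458 CPM in male controls and 23212 to 24723 at 6 weeks, and 27892 to 29341 and 20707 to 24456 in females. Of 11 fibroblast genes 9 rose and 1 fell in each sex, with sums of 1632 to 2168 and 6169 to 8049 CPM in males and 2122 to 2524 and 8214 to 14649 in females. Of 11 macrophage genes 10 rose in males and 11 in females, with sums of 254 to 413 and 990.3 to 1454 in males and 233 to 295 and 1215 to 1391 in females. Of 10 endothelial genes 4 fell in males and 6 in females, and of 10 smooth muscle and pericyte genes 2 and 3 fell, with none higher in either list. Skeletal muscle markers summed to 905 to 1157 CPM in male controls and 575 to 724 at 6 weeks, and to 1019 to 1262 and 580.3 to 722 in females. Atrial markers, among them the stress marker *Nppa*, summed to 67.4 to 126 and 113 to 217 CPM in males. In females they summed to 99.7 to 149.6 and 128 to 1710.0. *Actn1*, *Tpm3* and *Pdlim5* are also used by non-muscle cells. The part of these cell types in the members' changes was not tested.

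Promoters from RefSeq (GRCm38.p6) were at hand for 34 of the members and for 11 of the 12 members called in both sexes at 6 weeks. The 250 bases before the start were searched on both strands for the MEF2 site, the CArG box bound by serum response factor, and 4 shorter motifs. The E-box was taken as CANNTG. The STAT site was taken as TTCNNNGAA. The MCAT site, bound by TEAD factors, was taken as CATTCC. The GATA site was taken as AGATAA, with T also accepted first and G last. Of the 11 promoters, 3 held a MEF2 match (*Fhl2*, *Myoz2* and *Ttn*), where 2.92% of all 32851 windows held one. A CArG box match was present in 2 (*Fhl2* and *Myom1*; 1.47% of all windows), a GATA match in 8 (26.5%), an MCAT match in 1 (*Tmod1*; 12.6%), an E-box match in 9 (66.2%) and a STAT match in 0 (7.02%). A match is a description of letters and not of binding, some genes have more than 1 window, and E-box letters can overlap the other motifs.

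Windows of 4 members are printed, 5′ to 3′ on the gene's strand. *Myh7b* fell most, and *Actn1* rose in both sexes. *Myoz2* and *Ttn* were called lower at every week on the deposited scale, though not under scaling by library size alone, and hold a MEF2 match. Capitals mark MEF2, CArG, GATA, MCAT and STAT matches, and E-box matches are left in lower case.
*Myh7b*, chr2:155610993-155611242, plus strand: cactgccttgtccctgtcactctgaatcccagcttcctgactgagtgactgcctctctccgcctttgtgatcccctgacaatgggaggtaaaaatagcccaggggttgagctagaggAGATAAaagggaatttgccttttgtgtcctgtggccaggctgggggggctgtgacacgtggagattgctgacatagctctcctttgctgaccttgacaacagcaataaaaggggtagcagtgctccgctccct
*Myoz2*, chr3:123034988-123035237, minus strand: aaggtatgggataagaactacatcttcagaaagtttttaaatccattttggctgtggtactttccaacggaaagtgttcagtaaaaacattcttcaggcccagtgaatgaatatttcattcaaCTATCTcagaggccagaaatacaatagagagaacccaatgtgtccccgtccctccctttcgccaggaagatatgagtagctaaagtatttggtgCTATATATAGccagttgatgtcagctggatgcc
*Ttn*, chr2:76982548-76982797, minus strand: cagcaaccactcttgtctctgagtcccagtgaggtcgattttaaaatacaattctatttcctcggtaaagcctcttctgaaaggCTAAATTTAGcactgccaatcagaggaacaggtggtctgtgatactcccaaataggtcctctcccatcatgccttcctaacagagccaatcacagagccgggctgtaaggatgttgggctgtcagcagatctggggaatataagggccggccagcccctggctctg
*Actn1*, chr12:80260364-80260613, minus strand: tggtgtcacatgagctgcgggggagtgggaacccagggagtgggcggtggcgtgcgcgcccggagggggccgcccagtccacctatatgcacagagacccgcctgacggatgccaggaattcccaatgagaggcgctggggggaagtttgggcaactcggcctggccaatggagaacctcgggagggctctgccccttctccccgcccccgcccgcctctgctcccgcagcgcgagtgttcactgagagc
The MEF2 match lay 33 to 24 bases before the start in *Myoz2* and 166 to 157 bases before it in *Ttn*. GATA matches lay 133 to 128 bases before the start in *Myh7b* and 127 to 122 bases before it in *Myoz2*. *Actn1* held an E-box match, 244 to 239 bases before its start, and none of the other motifs searched.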

How the data were processed

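Hearts of 40 mice were profiled by RNA sequencing of polyA RNA (directional kit). Per the study's methods, the authors aligned reads with STAR 2.7.10a to GRCm39 with Ensembl 106 annotation, counted them with featureCounts (Rsubread 2.10.4) and tested expression with edgeR 3.38.1. How the deposited values were normalised, the strand setting and the filter on low genes are not given in the sources used here. The deposited tables, 1 per sex, hold a signal headed CPM, which is a read count divided by 1 factor per library. All values (100%) came within 0.001 of whole reads once that factor was recovered. Columns sum to 817395 to 1193422 in males and 848402 to 1196278 in females, not to a fixed total. The unit thus differed from the plain CPM foreseen, and the test was kept on the log2 scale.

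Groups came from the labels. Of 40 libraries 38 were used, and 2 male libraries whose title and description disagree were left out. Values as log2(CPM + 0.5) of genes with at least 0.5 CPM in at least 3 libraries (16931 in males, 16956 in females) were fitted with limma 3.58.1 in R 4.3.3, 1 fit per sex over all 5 groups with a mean-variance trend. Sexes were never tested against each other. Alternatives were edgeR 4.0.16 and DESeq2 1.42.0 on the recovered reads, other pseudocounts and filters, scaling by library size alone, a fit of only the groups compared, a replicate block, a fold change of at least 2, placing the 2 libraries by either label, and leaving out libraries. Removing a length trend and leaving out 5 female libraries with *Neat1* under 300 CPM were chosen after seeing the data. Scripts were tested on simulated data.

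Members and lists were chosen with earlier results of these data known. All members are named. Values in every library are given for *Il11* and for members called at 1 of the weeks in both sexes with a change of 1 or more on the log2 scale (at 6 weeks in either sex), and non-members named are the 3 largest rises and falls at 6 weeks (mean of the sexes) among those called in both. Positions are from the GRCm39 annotation and sequences from RefSeq tables of GRCm38.p6. Of 17831 gene IDs 17754 matched the annotation, and 11 members share exon bases with another listed gene. The labels number the libraries as replicates, and p-values measure the spread between them. The number of reads limits the precision of low genes such as *Myom3*.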

Additional observations from a re-analysis of the deposited data

Results flagged for a closer look

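In 24 of 320 groups of 4 libraries, from 20 members, 1 heart lay far from the other 3 by Dixon's test. About 1 in 20 groups is marked in this way when nothing sets a heart apart. Male 1-week replicate 4 stood out in 5 members, with *Tpm3* at 74.3 CPM, *Actn1* at 31.7, *Pdlim3* at 9.25 and *Pdlim5* at 519 below the other hearts of its group and *Actn2* at 1905 above them. Its mitochondrial share was 7.70%, and without it 18 members were called in males at 1 week. Male 1-week replicate 1 was high in *Xirp1* at 311.

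Among uninduced males, replicate 3 was low in *Myom2* at 659, and replicate 1 was high in *Pdlim5* at 568 and low in *Fhl2* at 828. Among 3-week males, replicate 3 was high in *Myh7b* at 81.8, *Lmod2* at 753 and *Xirp1* at 366, replicate 2 was high in *Tpm2* at 16.6 and *Nexn* at 525, and replicate 1 was low in *Tnnt2* at 2357. In females, control replicate 3 was low in *Myl3* at 3421, and uninduced replicate 3, which also had the highest *Il11* of its group, was high in *Synpo2l* at 212. At 1 week replicate 1 was high in *Csrp3* at 756 and replicate 3 in *Fhl1* at 119.6. At 3 weeks replicate 2 was high in *Tpm1* at 6003, *Lmod3* at 78.2 and *Csrp3* at 731, and replicate 3 was low in *Flnc* at 214.9. At 6 weeks replicate 1 was high in *Myh7b* at 40.9, and it was the 1 heart of that group with *Neat1* above 300 CPM.

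For 2 members, each at a single time point, every male heart of that week lay above the mean of the male controls and every female heart below the mean of the female controls, and this difference was not tested. *Tnnc1* at 1 week was at 0.60 against control in males and -0.26 in females, and *Fhl1* at 3 weeks was at 0.43 in males and -0.12 in females. The 2 male libraries with conflicting labels held *Il11* at 0.597 and 511 CPM, where the highest male control was at 0.147.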

How the results depend on the processing

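Counts of members called were within 1.5 times those reported with pseudocounts of 0.1 and 2, a stricter filter or none, edgeR, and the length trend removed. With scaling by library size alone 9 were called in males at 3 weeks, 7 and 9 in females at 1 and 3 weeks, and 5 in females at 6 weeks against uninduced; *Cryab* in females at 1 and 6 weeks (0.00503 and 0.0330) and *Actn2* in females at 6 weeks (0.0411) turned sign. With only the groups compared, 9 were called in males at 6 weeks against control and 4 in females at 6 weeks against uninduced. Placing the 2 male libraries by title, which makes the one high in *Il11* a control, gave 6, 0 and 0 at 1, 3 and 6 weeks. It gave 0 at 6 weeks against uninduced. Placing them by description gave 23 at 6 weeks against uninduced and 2 at 6 weeks against 1 week. DESeq2 gave 1 in males at 6 weeks against 1 week and 17 in females at 6 weeks against uninduced. Without the 5 female libraries low in *Neat1*, 7 were called at 6 weeks and 0 against uninduced. A fold change of at least 2 left 1, 4 and 5 male calls and 2, 0 and 3 female calls at 1, 3 and 6 weeks, and 3 and 0 against uninduced. The cause was not tested, except that a stricter threshold lowers a count by construction.

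Calls were also counted without 1 library at a time and without 1 replicate number in every group, and the ranges cover both. In males they were 6 to 19 at 1 week, 7 to 18 at 3 weeks and 9 to 16 at 6 weeks. In females they were 5 to 18, 9 to 16 and 15 to 22. Against uninduced at 6 weeks the ranges were 9 to 17 in males and 4 to 14 in females. At 6 weeks against 1 week they were 0 to 1 in both. For uninduced against control they were 0 to 0 in males and 0 to 1 in females. The lowest counts against control came without replicate number 3 in males and without replicate number 2 in females at 1 and 6 weeks. In females at 3 weeks the lowest came without replicate number 1. The female count of 15 at 6 weeks was also reached without control replicate 1 alone. Of the 12 members called in both sexes at 6 weeks, 9 kept their calls without any 1 library and 6 also without any replicate number; at 1 week these were 5 and 1 of 10 and at 3 weeks 7 and 4 of 10.

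On average same-numbered libraries did not deviate together (mean correlation 0.0132 in males, 0.0255 in females). Single pairs ranged from -0.134 to 0.256 in males and from -0.342 to 0.563 in females. A mean over pairs cannot tell whether some numbers are paired, and the main fit used no pairing. With a replicate block 16, 16 and 16 male calls and 17, 17 and 21 female calls were made at 1, 3 and 6 weeks, with 12 and 10 at 6 weeks against uninduced, and 3 calls against control were lost (*Tnnc1* at 1 week, *Ttn* at 3 weeks and *Pdlim5* at 6 weeks, all in males) and 5 gained.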

Other observations

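The 2 male libraries whose labels disagree differed in the members as in *Il11*. The library with *Il11* at 0.597 CPM had *Myh7b* at 119, *Myom2* at 1066, *Tmod1* at 217, *Actn1* at 27.7, *Tpm3* at 53.7, *Myoz2* at 721 and *Ttn* at 2945. The library with *Il11* at 511 had *Myh7b* at 31.2, *Myom2* at 372, *Tmod1* at 87.3, *Actn1* at 57.9, *Tpm3* at 72.7, *Myoz2* at 497 and *Ttn* at 2755.

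*Tnnt2* ranged from 2357 to 8305 CPM over the male libraries (median 5520) and from 1407 to 6742 over the female libraries (median 5295), with no call in any comparison. *Myh7b* had the widest spread within groups in females, with a pooled SD of 0.98 on the log2 scale, followed by *Tcap* at 0.62.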
